A study of Mus musculus with 10 samples.

Results

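The genes described here are Hoxa2, Hoxa3, Hoxa4, Hoxa5, Hoxa6, Hoxa7, Hoxa9, Hoxa10 and Hoxa11, which are 9 of the 24015 genes in the deposited count table. They were taken by symbol, in their order along the Hoxa cluster of chromosome 6, and no measured value was used to choose them. All 9 had enough reads to be among the 12971 genes tested. RNA was sequenced from MAF9 cells, which are bone marrow cells of C57BL/6 mice transduced with the MLL-AF9 fusion gene and grown with 10 ng/ml interleukin-3 and 15% fetal bovine serum. Every group carried the fusion gene, and no untransduced cells were compared. Over 4 days the cells received DMSO, MM-401 (labelled MM401), EPZ5676 (labelled EPZ), MI-2-2 (labelled MI, or MI-2 in the protocol) or iBET, each inhibitor at its own IC50 (doses not given in the sources used here), and each group had 2 libraries that the series calls biological duplicates. No label says whether the duplicates came from separate transductions, so the tests measure the spread between these libraries.

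Hox genes encode homeodomain transcription factors that lie in clusters, and their order along the chromosome follows the order in which body regions use them. In blood, the posterior Hoxa genes are active in stem and early progenitor cells and are turned off as myeloid cells mature. MLL1 and MLL fusion proteins bind the Hoxa cluster and keep it active, and Hoxa9, together with its cofactor Meis1, is a central driver of MLL-rearranged leukemia. The inhibitors act on different partners of this machinery. MM-401 blocks the contact of MLL1 with WDR5, EPZ5676 inhibits the histone methyltransferase DOT1L, MI-2-2 keeps MENIN from binding MLL proteins, and iBET is a bromodomain inhibitor that displaces reader proteins from acetylated histones.

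The libraries held 20394762 to 29473127 counted reads. Levels are given as CPM, the reads of a gene scaled to the size of the library with TMM factors. Log2 fold changes are given ± SE, and adjusted p-values are those of the quasi-likelihood test of edgeR, adjusted by Benjamini-Hochberg over all genes tested. The library labelled DMSO replicate 2 stood apart. It held 3630 reads of 4 Y-linked genes against 0 to 2 in the other 9 libraries, and its Xist level was 4.65 CPM against 1026 to 2818. Its reads show the pattern of male cells, and those of the other 9 libraries the pattern of female cells. The DMSO libraries thus differ in origin, which the labels do not mention and which every comparison with DMSO carries. Among genes averaging 1 CPM or more in the group, 16.2% differed more than 2-fold between the DMSO libraries, against 1.54% to 4.50% between the libraries of an inhibitor. Among the 9 Hoxa genes, 4 differed more than 2-fold between the DMSO libraries (by up to 10.3-fold) and 0 did so between the libraries of an inhibitor, where the largest gap was 1.70-fold. Each comparison of the 9 Hoxa genes with DMSO is therefore given against both DMSO libraries and against each of them. Comparisons of other genes with DMSO are given against both DMSO libraries together only, so their dependence on either library was not tested. The summed level of 11 markers of myeloid and progenitor cells was 7177 to 13711 CPM in every library. This sum hides wide moves of its members, with Mpo at 14.6 to 4817 CPM and Lyz2 at 261 to 5389 CPM. Kit (41.8 to 180 CPM) and Spi1 (195 to 511 CPM) moved less, and Cd34 was at 0.097 to 2.35 CPM. The sum of 7 fibroblast and stroma markers was 0.39 to 1.20 CPM in DMSO, 0.76 in both MM-401 libraries, 6.16 and 19.0 with EPZ5676, 3.04 and 11.3 with MI-2-2 and 0 with iBET, with 0 reads of the defining genes Col1a2, Col3a1, Dcn and Lum in every library, and its part in the results was not tested. The sum of 5 mature neutrophil markers differed with the inhibitor, with 604.1 to 3442 CPM in DMSO, 4362 to 5727 with MM-401, 47112 to 64275 with EPZ5676, 41838 to 41934 with MI-2-2 and 450.5 to 1095 with iBET. The sum of 6 macrophage markers was 44.7 to 93.8 CPM in DMSO and with MM-401, 284 to 380.1 with EPZ5676, 301 to 628 with MI-2-2 and 61.6 to 85.0 with iBET. In bulk RNA, fewer cells that express a gene and less RNA of that gene per cell cannot be told apart.

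Read together, the 9 genes took 0.0505% to 0.151% of a library's reads. Their summed level was lowest with EPZ5676, at 549 and 558 CPM. It was 1082 and 639.5 CPM in DMSO, 1087 and 1128 with MM-401, 1194 and 1029.7 with MI-2-2, and 1460.1 and 1357 with iBET. Hoxa9 made up 33.6% to 59.4% of the sum, so the sum mainly follows Hoxa9, Hoxa10 and Hoxa11. Under EPZ5676 the share of Hoxa9 was 50.5% and 51.6%, above the 33.6% to 37.2% of the other 6 inhibitor libraries. In DMSO it was 41.2% in replicate 1 and 59.4% in replicate 2, the highest of all libraries.

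To set the genes beside each other, levels were divided by the kilobases of exon in the GENCODE M21 annotation. On this scale, CPM per kb, the 3 posterior genes were the highest. Hoxa10 ranged from 38.4 to 162, median 96.6, over the 10 libraries. Hoxa11 ranged from 8.07 to 112, median 86.1, and Hoxa9 from 49.7 to 93.1, median 69.6. Their ranges overlapped, and the order among these 3 genes was not settled. Hoxa10 exceeded Hoxa11 in 10 of 10 libraries and Hoxa11 exceeded Hoxa9 in 7 of 10, but with the longest transcript of each gene as its length Hoxa9 exceeded Hoxa11 in 10 of 10. The central genes followed, with Hoxa5 at 14.2 to 52.1, median 35.5, Hoxa6 at 9.77 to 31.3, median 19.9 and Hoxa7 at 7.05 to 17.7, median 9.90 CPM per kb. Hoxa5 was above Hoxa6 in 10 of 10 libraries and Hoxa6 above Hoxa7 in 9 of 10. The anterior genes were the lowest with all exon bases as length. Hoxa3 lay at 1.65 to 9.68, median 5.51, Hoxa2 at 0.902 to 4.59, median 2.51 and Hoxa4 at 0.761 to 2.98, median 1.85 CPM per kb, and Hoxa2 exceeded Hoxa4 in 8 of 10 libraries. The ranges of all 8 pairs of neighbours in this order overlapped across libraries. Hoxa7 exceeded Hoxa3 in 10 of 10 libraries, but in only 6 of 10 with the longest transcript as length, so their order was not settled either.

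**Figure D1:**
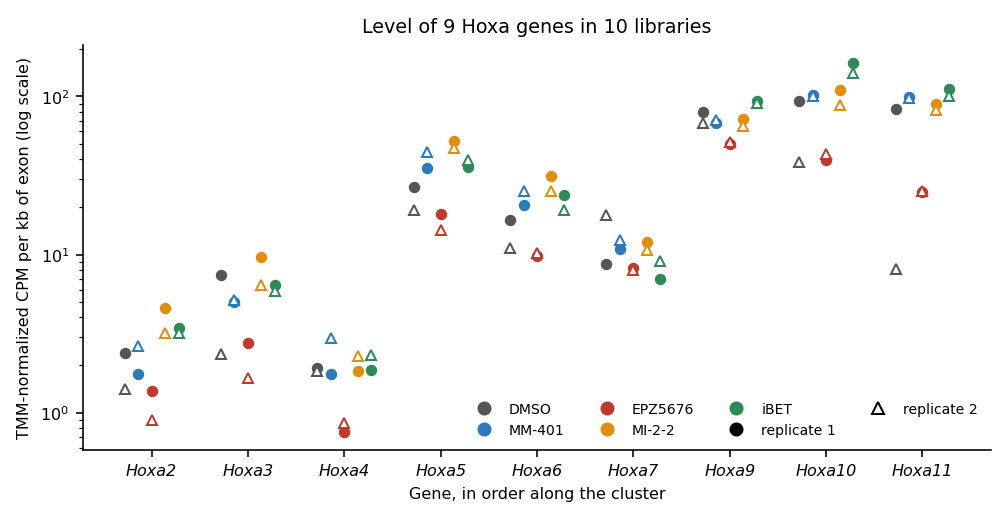
Level of the 9 Hoxa genes (x axis, in order along the cluster) in TMM-normalized CPM per kb of exon (y axis, log scale), with 1 point per library, colours for the 5 conditions, filled circles for replicate 1 and open triangles for replicate 2. Hoxa9, Hoxa10 and Hoxa11 were highest, the red EPZ5676 points lie below those of the other inhibitors for every gene but Hoxa7, where iBET replicate 1 was lower, and the open grey triangle of DMSO replicate 2 falls to 8.07 for Hoxa11.

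The sequences just upstream of annotated start sites differed from member to member. RefSeq (GRCm38.p6) gave start site windows for 8 of the 9 genes, Hoxa4 being the exception, and 9 windows in all, since Hoxa10 had 2. The Hoxa3 window, at chr6:52213068-52213317, lay between those of Hoxa6 and Hoxa7 and overlapped exons of Hoxa3, Gm28308 and Hoxaas3. It therefore belongs to a distant start site and is not the sequence next to Hoxa3 in the cluster order. In the 250 bases before the start site the number of CG dinucleotides, which CXXC domains such as that of MLL1 bind when unmethylated, ran from 3 for Hoxa9 to 28 for Hoxa5, beside a median of 6 over 32851 windows of the same length. Hoxa3 had 18, Hoxa6 24, Hoxa11 13, Hoxa7 7 and Hoxa2 6, and the Hoxa10 windows had 7 and 20. The following windows are shown because they overlapped no annotated exon and span this range. They are on the minus strand of GRCm38.p6, at chr6:52204588-52204837 for Hoxa5, chr6:52227371-52227620 for Hoxa9, chr6:52234940-52235189 for Hoxa10 (the window nearer to Hoxa9) and chr6:52164832-52165081 for Hoxa2. They are printed in the direction of the gene, 5′ to 3′, with every CG in capitals.
Hoxa5: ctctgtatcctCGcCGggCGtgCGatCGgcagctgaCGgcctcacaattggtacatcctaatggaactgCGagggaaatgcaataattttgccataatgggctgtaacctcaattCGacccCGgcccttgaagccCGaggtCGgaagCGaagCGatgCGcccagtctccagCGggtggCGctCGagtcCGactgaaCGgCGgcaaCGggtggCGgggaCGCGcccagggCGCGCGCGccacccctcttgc
Hoxa9: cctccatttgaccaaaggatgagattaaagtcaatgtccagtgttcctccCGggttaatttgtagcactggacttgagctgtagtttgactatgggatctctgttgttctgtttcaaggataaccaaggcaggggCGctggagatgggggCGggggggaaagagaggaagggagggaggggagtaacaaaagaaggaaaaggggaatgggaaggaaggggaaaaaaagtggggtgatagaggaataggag
Hoxa10: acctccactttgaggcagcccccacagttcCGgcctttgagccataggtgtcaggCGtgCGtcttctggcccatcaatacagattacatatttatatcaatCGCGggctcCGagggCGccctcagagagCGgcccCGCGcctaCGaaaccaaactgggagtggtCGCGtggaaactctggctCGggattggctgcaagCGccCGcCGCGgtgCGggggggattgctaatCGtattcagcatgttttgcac
Hoxa2: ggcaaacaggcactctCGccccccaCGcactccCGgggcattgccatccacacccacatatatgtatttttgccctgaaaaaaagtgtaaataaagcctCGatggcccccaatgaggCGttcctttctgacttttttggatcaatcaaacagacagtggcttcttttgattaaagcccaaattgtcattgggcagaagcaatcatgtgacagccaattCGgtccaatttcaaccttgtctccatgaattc
The capitals crowd the Hoxa5 window and are scarce in that of Hoxa9, although both genes were expressed in every library.

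These windows were searched on both strands for TATAAA (the TATA box), CCAAT (the CCAAT box), TGACAG (a motif of Meis proteins) and TGATTTAT (a motif of Hox proteins bound with Pbx), which occur in 12.4%, 33.8%, 15.9% and 0.837% of all windows. No word contains another. The Hoxa2 window held 4 CCAAT words and 1 TGACAG, at 44 bases before the start site. The Hoxa3 window held 1 TGACAG, and the Hoxa5 and Hoxa6 windows 1 CCAAT each. TATAAA and CCAAT stood in the Hoxa10 window printed above, both on the strand opposite to the gene, 160 and 64 bases before the start site. The windows of Hoxa7, Hoxa9 and Hoxa11 and the other Hoxa10 window held none of the 4 words, and TGATTTAT was in none of the 9. A match describes the letters and is no evidence of binding.

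Hoxa2, Hoxa3 and Hoxa4 are the anterior genes measured here and are best known from hindbrain, pharyngeal arch and neck development. Their levels, in CPM, were lower with EPZ5676 than with the other inhibitors. Hoxa2 measured 4.21 and 2.49 in the DMSO libraries, 3.13 and 4.71 with MM-401, 2.43 and 1.601 with EPZ5676, 8.15 and 5.66 with MI-2-2 and 6.10 and 5.62 with iBET. Both EPZ5676 libraries were below the other 8 libraries for Hoxa2, and the highest value was in MI-2-2 replicate 1. Hoxa3, which is needed for thymus and parathyroid development, measured 44.5 and 14.05 in the DMSO libraries, 30.0 and 31.0 with MM-401, 16.5 and 9.93 with EPZ5676, 58.2 and 38.7 with MI-2-2 and 38.4 and 35.3 with iBET. The DMSO libraries were 3.17-fold apart for Hoxa3, and replicate 2 lay between the EPZ5676 libraries. Hoxa4 was the least abundant member per kb and measured 3.04 and 2.92 in the DMSO libraries, 2.79 and 4.75 with MM-401, 1.21 and 1.37 with EPZ5676, 2.91 and 3.65 with MI-2-2 and 2.96 and 3.71 with iBET. The EPZ5676 values were again below the other 8, and the DMSO libraries differed little.

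Hoxa5, Hoxa6 and Hoxa7 lie in the middle of the cluster. Hoxa5, which patterns the lung and the neck vertebrae, measured 50.5 and 36.0 in the DMSO libraries, 66.6 and 82.9 with MM-401, 33.8 and 26.7 with EPZ5676, 97.8 and 88.4 with MI-2-2 and 66.8 and 74.2 with iBET. For Hoxa5, both MI-2-2 libraries were above and both EPZ5676 libraries below all other libraries. Hoxa6 measured 14.4 and 9.59 in the DMSO libraries, 18.0 and 22.02 with MM-401, 8.54 and 8.94 with EPZ5676, 27.4 and 21.9 with MI-2-2 and 20.9 and 16.7 with iBET, again with both EPZ5676 libraries at the bottom. Hoxa7, a gene that MLL fusion proteins activate in leukemia, measured 25.1 and 51.0 in the DMSO libraries, 31.1 and 35.3 with MM-401, 23.5 and 23.0 with EPZ5676, 34.6 and 30.7 with MI-2-2 and 20.3 and 26.2 with iBET. Its highest value was in DMSO replicate 2 and its lowest in iBET replicate 1, and the EPZ5676 libraries lay between the iBET libraries.

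Hoxa9, Hoxa10 and Hoxa11 are the posterior genes that were abundant in these cells. Hoxa9, the member with the best known part in leukemia, measured 445 and 379.6 in the DMSO libraries, 376 and 397 with MM-401, 277 and 288 with EPZ5676, 401 and 363 with MI-2-2 and 519 and 506 with iBET. Its range over the 10 libraries was narrow, 1.87-fold, with both EPZ5676 libraries below and both iBET libraries above all others. Hoxa10, a posterior gene of blood progenitors, measured 305 and 125 in the DMSO libraries, 333 and 326 with MM-401, 129 and 141 with EPZ5676, 359.8 and 289.9 with MI-2-2 and 530.2 and 461 with iBET. DMSO replicate 2 was lowest for Hoxa10, just under the EPZ5676 libraries, and both iBET libraries were highest. Hoxa11, known for limb, kidney and uterus development, measured 189 and 18.5 in the DMSO libraries, 226 and 224 with MM-401, 56.6 and 58.0 with EPZ5676, 205 and 188 with MI-2-2 and 255 and 229 with iBET. DMSO replicate 2 was far below every other library for Hoxa11, while DMSO replicate 1 was near the MI-2-2 libraries. The range of Hoxa11 over the 10 libraries was 13.8-fold.

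**Figure D2:**
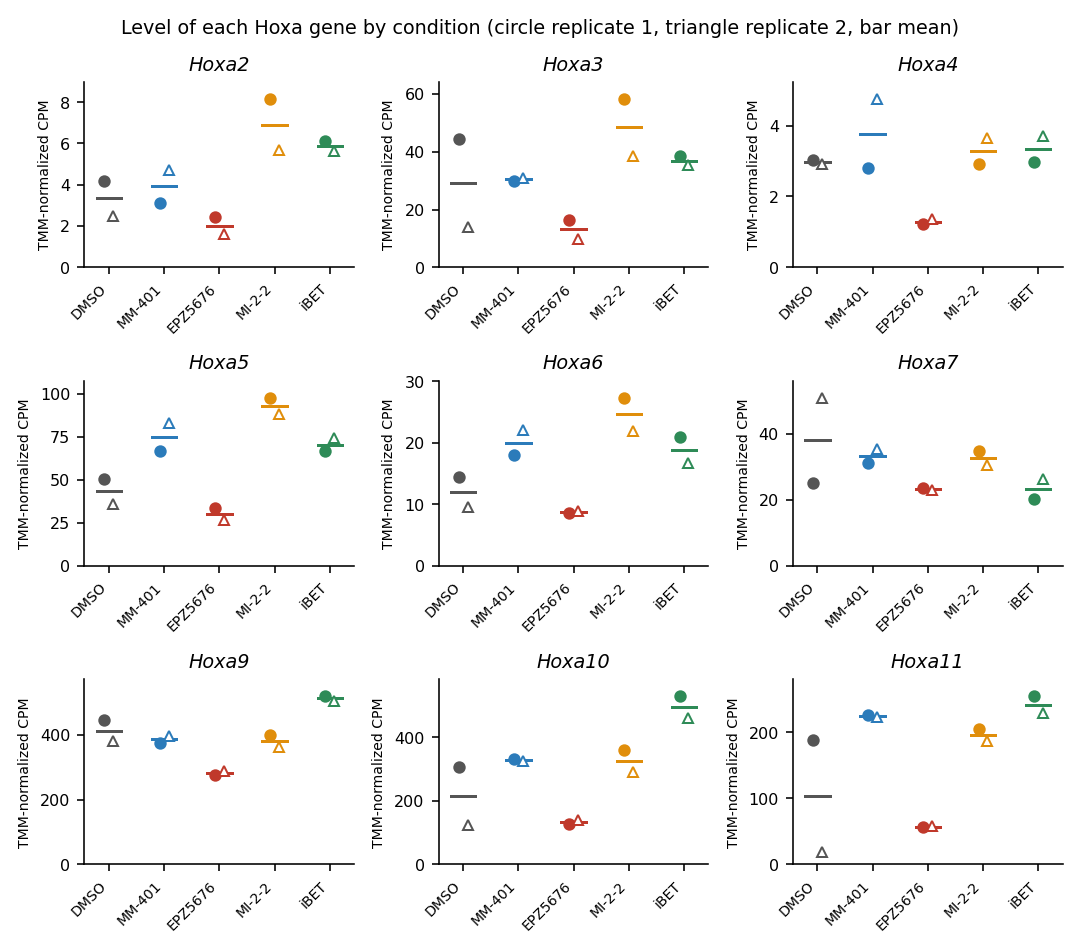
TMM-normalized CPM (y axis, starting at 0) of each Hoxa gene in DMSO and the 4 inhibitors (x axis), with a circle for replicate 1, a triangle for replicate 2 and a bar at the mean of the 2 libraries. The EPZ5676 mean was the lowest of the 5 in all 9 panels, for Hoxa7 by less than the spread of the iBET libraries, MI-2-2 was highest for Hoxa5 and iBET for Hoxa9, Hoxa10 and Hoxa11, and the DMSO libraries parted most for Hoxa3, Hoxa7, Hoxa10 and Hoxa11.

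With EPZ5676, the DOT1L inhibitor, 2 of the 9 genes fell against DMSO and 0 rose. Of all genes, 38.1% were called in this comparison, 19.4% as lower, so 2 of 9 was near the share of all genes that fell. Hoxa9 fell 1.46-fold, from 412 ± 46.4 to 283 ± 7.77 CPM (SD, n = 2 each, log2 fold change -0.55 ± 0.13, edgeR adjusted p = 0.0117). Hoxa4 fell 2.31-fold, from 2.98 ± 0.0798 to 1.29 ± 0.108 CPM (log2 fold change -1.21 ± 0.35, edgeR adjusted p = 0.029). The other 7 had log2 fold changes of -1.15 to -0.46 that missed the threshold, and the median of the 9 was -0.71 beside -0.06 for all genes tested. Both EPZ5676 libraries were below both DMSO libraries for 6 genes, a pattern that 33% of all genes had. With the replicate number as a block, Hoxa3 was called too (log2 fold change -1.07, edgeR adjusted p = 0.0492).

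The calls depended on the DMSO library, and in the fits with 1 DMSO library that library is assumed to vary like the other groups. Against DMSO replicate 1 alone, 7 genes were called lower (background 16.6%), and Hoxa11 had a log2 fold change of -1.70 (edgeR adjusted p = 2.70e-04). Against DMSO replicate 2 alone, Hoxa4, Hoxa7 and Hoxa9 were called lower and Hoxa11 was called higher (background 25.5% lower and 25.5% higher), with a log2 fold change of 1.64 for Hoxa11. Hoxa10 went from -1.15 to 0.11 and Hoxa3 from -1.72 to -0.08 with the change of the DMSO library. Hoxa4 and Hoxa9 were called against either. With EPZ5676 replicate 1 or replicate 2 left out, neither call was kept, and fewer of all genes were called too. Hoxa4 then had log2 fold changes of -1.12 and -1.29, and Hoxa9 of -0.51 and -0.57. When the fit held the 4 compared libraries alone, 0 of the 9 passed. That fit called 1174 genes in all, against 4942 in the fit of 10 libraries.

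With MI-2-2, the MENIN inhibitor, Hoxa5 and Hoxa6 rose against DMSO and 0 of the 9 genes fell, where 41.4% of all genes were called and 20.2% as higher. Hoxa5 rose 2.15-fold, from 43.2 ± 10.3 to 93.1 ± 6.61 CPM (SD, n = 2 each, log2 fold change 1.11 ± 0.20, edgeR adjusted p = 0.00436). Hoxa6 rose 2.05-fold, from 12.02 ± 3.44 to 24.6 ± 3.88 CPM (log2 fold change 1.03 ± 0.24, edgeR adjusted p = 0.0122). Hoxa2 missed the threshold with a log2 fold change of 1.04 ± 0.38 (edgeR adjusted p = 0.059) and passed it with the replicate block (1.05, edgeR adjusted p = 0.0382). Hoxa9 had a log2 fold change of -0.11 ± 0.12, with a 95% interval of -0.40 to 0.18. The median of the 9 was 0.72 beside -0.05 for all genes tested. Against DMSO replicate 1 alone the calls were Hoxa5 and Hoxa6 again (log2 fold changes 0.92 and 0.80, background 20.4% higher). Against DMSO replicate 2 alone, 6 genes were called higher and Hoxa7 lower (background 27% and 26.9%), and Hoxa11 moved from 0.09 to 3.41. Without MI-2-2 replicate 1 the call of Hoxa6 was not kept (log2 fold change 0.86), and fewer of all genes were called too. With the 4 compared libraries alone 0 of the 9 passed. That fit called 1147 genes in all, against 5373 in the fit of 10 libraries. The neutrophil and macrophage marker sums given above were higher than in DMSO with MI-2-2 and with EPZ5676 alike, and their part in either comparison was not tested.

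With MM-401, which targets the contact of MLL1 and WDR5, edgeR called 0 of the 9 genes against DMSO and 0% of all genes. At an unadjusted p under 0.05 there were 2, Hoxa5 and Hoxa6, where 11.2% of all genes passed, and DESeq2 called 1 where its share of the genes it gave an adjusted p was 2.34%. Hoxa5 had a log2 fold change of 0.79 ± 0.20 (edgeR adjusted p = 0.305) and Hoxa6 of 0.73 ± 0.24 (edgeR adjusted p = 0.347). Both MM-401 libraries were above both DMSO libraries for Hoxa5, Hoxa6, Hoxa10 and Hoxa11, against 19.5% of all genes. For Hoxa9 the log2 fold change was -0.09 ± 0.12 with a 95% interval of -0.38 to 0.19. Against DMSO replicate 2 alone 4 genes were called higher, against DMSO replicate 1 alone 0 (background 5.96% and 0%).

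With iBET, edgeR again called 0 of the 9 genes against DMSO, where 13.9% of all genes passed. At an unadjusted p under 0.05 there were 5, namely Hoxa5, Hoxa6, Hoxa7, Hoxa9 and Hoxa10 (background 32.2%), and DESeq2 called 2 where its share of all genes was 21.8%. Hoxa5 and Hoxa10 came nearest to the threshold. The mean of Hoxa10 was 215 ± 127 CPM in DMSO and 496 ± 48.7 with iBET (log2 fold change 1.20 ± 0.35, edgeR adjusted p = 0.0579), and Hoxa5 had a log2 fold change of 0.70 ± 0.20 (edgeR adjusted p = 0.0533). Both passed with the replicate block (edgeR adjusted p = 0.026 and 0.0371). Hoxa7 had a log2 fold change of -0.71 ± 0.30, the opposite sign to the other 8. Both iBET libraries were above both DMSO libraries for 6 genes (background 27.7%). Against DMSO replicate 1 alone Hoxa10 alone was called (0.70, edgeR adjusted p = 0.0269, background 9.76% higher), and against DMSO replicate 2 alone 7 genes were, 6 higher and Hoxa7 lower (background 13.9% and 13.9%).

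**Figure D3:**
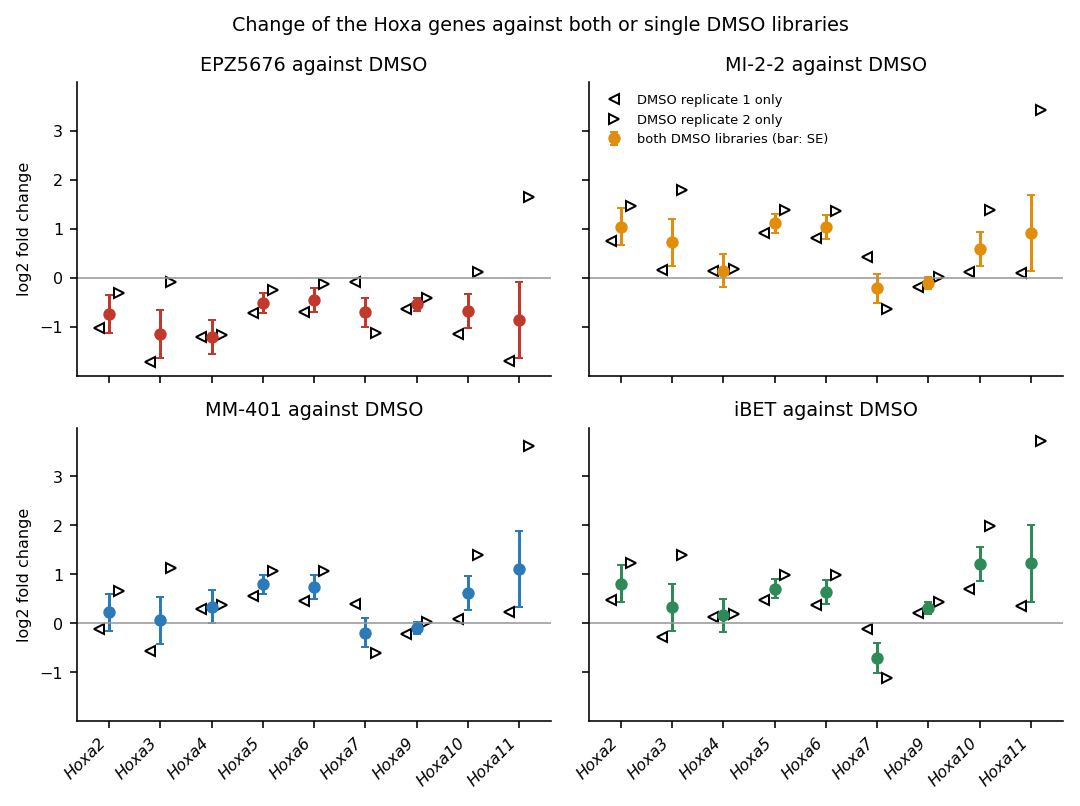
Log2 fold change (y axis) of each Hoxa gene (x axis) for each inhibitor against both DMSO libraries (filled points, bars are the SE) and against DMSO replicate 1 or replicate 2 alone (open triangles). The triangles lie closest for Hoxa4 and farthest apart for Hoxa11, where EPZ5676 gives -1.70 against replicate 1 and 1.64 against replicate 2.

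The inhibitors can be compared with each other without reading any DMSO value. EPZ5676 gave the lower level of every Hoxa gene against MI-2-2, each compound at its own IC50. Both EPZ5676 libraries were below both MI-2-2 libraries for 9 of 9 genes, a pattern found in 20.8% of all genes. The largest differences were 3.66-fold for Hoxa3, 3.43-fold for Hoxa11 and 3.42-fold for Hoxa2, and the smallest 1.35-fold for Hoxa9. Over the 9 genes the median log2 fold change was -1.49, beside -0.01 for all genes tested. In the fit of all 10 libraries edgeR called 0 of the 9 and 2 genes in all (0.0154%). At an unadjusted p under 0.05 there were 7 of the 9 where 7.22% of all genes passed, and DESeq2 called 6 where its share of all genes was 1.2%. Hoxa5 came nearest (log2 fold change -1.62 ± 0.20, edgeR adjusted p = 0.0815).

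That fit takes its spread from all libraries, and the DMSO pair is part of it. Without the DMSO libraries, 5 of the 9 genes were called lower with EPZ5676 than with MI-2-2, beside 0.569% of all genes. Hoxa11 ranked 1 of 12836 genes by p, with 57.3 ± 0.978 against 196 ± 11.9 CPM (SD, n = 2 each, log2 fold change -1.77 ± 0.10, edgeR adjusted p = 0.00196). In the fit of all libraries Hoxa11 ranked 1011 of 12971. Hoxa5 stood at 30.2 ± 5.002 against 93.1 ± 6.61 CPM (-1.62 ± 0.17, edgeR adjusted p = 0.0159). Hoxa10 (-1.27 ± 0.14), Hoxa6 (-1.49 ± 0.19) and Hoxa3 (-1.87 ± 0.28) were called as well. Hoxa2, Hoxa4, Hoxa7 and Hoxa9 had edgeR adjusted p-values of 0.0702 to 0.241. With the replicate block added to this fit, a choice made after the data were seen, 8 genes were called lower (background 3.45%). With only the EPZ5676 and MI-2-2 libraries in the fit, 0 of the 9 were called, and 3 genes in all. The neutrophil marker sums of the 2 groups were both high, 47112 and 64275 CPM with EPZ5676 and 41838 and 41934 with MI-2-2.

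Against MM-401, EPZ5676 gave lower levels of Hoxa4, Hoxa5, Hoxa6, Hoxa9 and Hoxa10, 5 of 9 genes, where 33.3% of all genes were called and 16.6% as lower. Hoxa5 was 2.47-fold lower (log2 fold change -1.31 ± 0.20, edgeR adjusted p = 0.00334) and Hoxa9 1.37-fold lower (-0.45 ± 0.13, edgeR adjusted p = 0.0274). With the replicate block Hoxa3 was called too (-1.28, edgeR adjusted p = 0.0285), and without the DMSO libraries all 9 were, against 25% of all genes as lower. Both EPZ5676 libraries were below both MM-401 libraries for 9 of 9 genes (background 38.1%). Leaving out 1 library of either group left fewer calls, among the 9 genes and over all genes alike. The neutrophil marker sum also differed between these groups, as given above, and its part in the difference was not tested.

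Against iBET, 7 of 9 genes were lower with EPZ5676, where 37.6% of all genes were called and 18.5% as lower. Hoxa10 was 3.67-fold lower (135 ± 8.25 against 496 ± 48.7 CPM, log2 fold change -1.88 ± 0.36, edgeR adjusted p = 0.00541). Hoxa9 was 1.81-fold lower (-0.86 ± 0.13, edgeR adjusted p = 0.00186). Hoxa7 was the exception, with a log2 fold change of -0.0016 ± 0.30 and a 95% interval of -0.70 to 0.70, and the sign of this value turned with DESeq2 size factors (0.06). Hoxa11 missed the threshold (-2.08 ± 0.80, edgeR adjusted p = 0.0738) and passed it without the DMSO libraries (-2.05 ± 0.10, edgeR adjusted p = 1.16e-05), where 8 genes were called against 25.1% of all genes as lower. For 8 of 9 genes both EPZ5676 libraries were below both iBET libraries (background 39.7%). With 1 library of either group left out there were fewer calls, among the 9 genes and over all genes alike. Both EPZ5676 libraries were below the 6 libraries of the other inhibitors for 8 of 9 genes, against 7.79% of all genes, and below all other 8 libraries for Hoxa2, Hoxa4, Hoxa5, Hoxa6 and Hoxa9, against 6.24%.

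**Figure D4:**
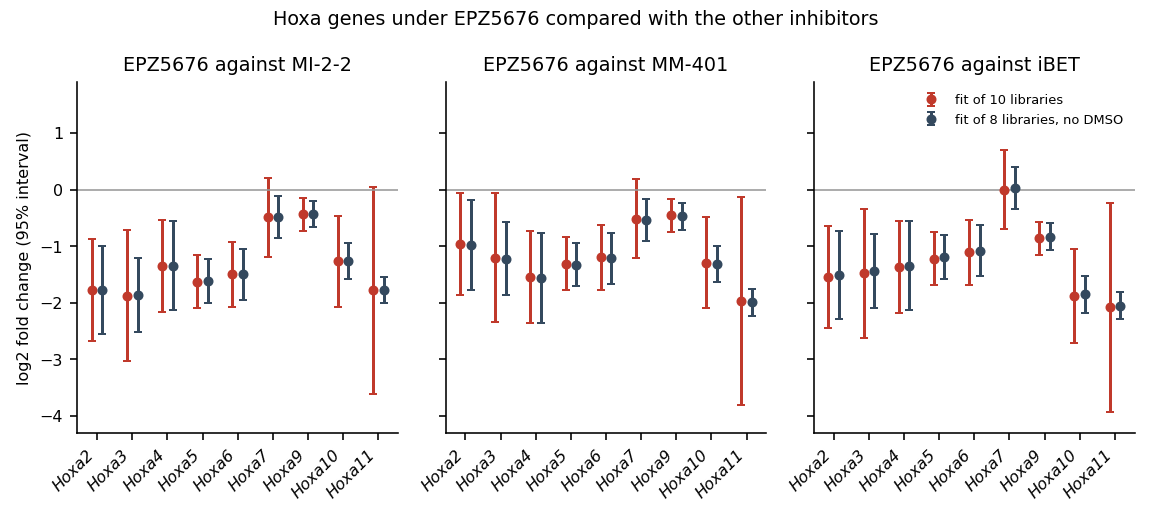
Log2 fold change of each Hoxa gene (x axis) with EPZ5676 against MI-2-2, MM-401 and iBET (y axis, bars are 95% intervals), from the fit of 10 libraries (red) and of the 8 inhibitor libraries (dark). The estimates hardly move between the fits and the interval of Hoxa11 shrinks most, while Hoxa7 sits at the zero line against iBET (-0.0016, or 0.06 with DESeq2 size factors).

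Among the other 3 inhibitors 0 or 1 of the Hoxa genes was called in the fit of 10 libraries. Between MI-2-2 and MM-401 edgeR called 0 of the 9 genes, also 0 at an unadjusted p under 0.05 (background 47.6%) and 0 with DESeq2, although edgeR called 35.7% of all genes and DESeq2 40.1%. For Hoxa9 this log2 fold change was -0.02 ± 0.12, with a 95% interval of -0.30 to 0.27, and for Hoxa10 the interval was -0.82 to 0.77, and the signs of both turned with DESeq2 size factors (0.02 and 0.01). Between MI-2-2 and iBET, Hoxa9 alone was called, 1.34-fold lower with MI-2-2 (-0.42 ± 0.12, edgeR adjusted p = 0.0298, background 38.8%). Leaving out any 1 of these 4 libraries ended the call, and fewer of all genes were called then too. Without the DMSO libraries Hoxa9, Hoxa10 and Hoxa11 were called lower and Hoxa7 higher with MI-2-2 than with iBET, at -0.40 ± 0.10, -0.58 ± 0.13, -0.28 ± 0.10 and 0.52 ± 0.16 (background 52.1%). Between MM-401 and iBET edgeR called 0 of the 9, where it called 11.4% of all genes. At an unadjusted p under 0.05 there was 1, where 27.5% of all genes passed, and DESeq2 called 1, where its share of the genes it gave an adjusted p was 18.8%. Without the DMSO libraries Hoxa9 and Hoxa10 were called lower (-0.36 ± 0.10 and -0.54 ± 0.13) and Hoxa7 higher (0.56 ± 0.16) with MM-401, where 25.2% of all genes were called. Both iBET libraries were above all other 8 for Hoxa9, Hoxa10 and Hoxa11, against 11.6% of all genes.

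Hoxa7 followed the other members least. Across the 10 libraries, Pearson's r between its log2 CPM and the mean of the other 8 was -0.07, and 0.46 over the 9 libraries without DMSO replicate 2, while for the other genes r lay between 0.73 and 0.95. The libraries share conditions, so these values describe the pattern only. Mira, a noncoding transcript between Hoxa6 and Hoxa7, measured 21.2 and 40.8 in the DMSO libraries, 23.0 and 25.0 with MM-401, 18.2 and 19.4 with EPZ5676, 24.8 and 24.9 with MI-2-2 and 14.6 and 18.8 with iBET, and like Hoxa7 it was highest in DMSO replicate 2 and lowest in iBET replicate 1. In the annotation 20.4% of the Hoxa7 exon bases overlap exons of the antisense gene Hoxaas3, and whether the counting used strand is not given in the sources used here.

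Other rows of the cluster were set beside the 9 genes. Hoxa13, at the posterior end, was close to silent, with 2 reads in the DMSO libraries together, 3 with EPZ5676 and 28 with MI-2-2, a ratio of MI-2-2 to DMSO of 12.9 (95% interval 3.26 to 112, counting error only). The neighbouring Evx1 had 0 reads. Of 6 noncoding transcripts of the cluster in the table, 4 were tested. Against DMSO, edgeR called 0 of the 4 with EPZ5676 (background 38.1% in either direction) and 1 higher with MI-2-2 (background 20.2% higher). That transcript was 2700086A05Rik, a synonym of Hoxaas3, with 10.0 and 6.18 CPM in DMSO, 16.1 and 13.95 with MI-2-2 (0.89 ± 0.28, edgeR adjusted p = 0.0377) and 5.63 and 3.86 with EPZ5676. Hoxa11os, the antisense transcript of Hoxa11, measured 105 and 4.75 in the DMSO libraries, 80.3 and 73.8 with MM-401, 27.1 and 21.2 with EPZ5676, 93.2 and 59.7 with MI-2-2 and 91.6 and 70.7 with iBET. It was lowest in the same library as Hoxa11, and 35.0% of the Hoxa11 exon bases lie in its exons, so that unstranded reads of the pair cannot be told apart.

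Mir196b, between Hoxa9 and Hoxa10, was higher with EPZ5676 than with MM-401 or iBET. The mature miR-196b-5p recognises transcripts of several Hox genes, and its sequence from RefSeq is shown with the seed (bases 2 to 8) in capitals.
miR-196b-5p: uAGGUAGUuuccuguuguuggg
The row counts reads on the 85 bases of the hairpin gene, all of which lie in an exon of Hoxa9 on the same strand, and does not measure the mature miRNA. Its CPM was 1.21 and 1.05 in the DMSO libraries, 1.14 and 0.714 with MM-401, 1.84 and 3.11 with EPZ5676, 1.30 and 2.12 with MI-2-2 and 0.972 and 1.03 with iBET. The log2 fold change was called with EPZ5676 against MM-401 (1.41 ± 0.44, edgeR adjusted p = 0.0402) and against iBET (1.30 ± 0.43, edgeR adjusted p = 0.0471), and it was not called against DMSO (1.13 ± 0.43, edgeR adjusted p = 0.0724).

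The 10 genes of the table nearest to the cluster on each side were compared as well, and 8 of these 20 were tested. Between EPZ5676 and MI-2-2 0 of the 8 were called in the fit of 10 libraries. In that fit 0 of the 9 Hoxa genes and 0.0154% of all genes were called, so this count does not set the neighbours apart. The median log2 fold change of the 8 was -0.03, beside -1.49 for the Hoxa genes. The nearest tested neighbours were Skap2 (0.11 ± 0.26) and Hibadh (-0.20 ± 0.11). Against DMSO, EPZ5676 gave 3 higher neighbours and 2 lower ones, among them Creb5 (2.67 ± 0.89, edgeR adjusted p = 0.0473), Jazf1 (1.58 ± 0.51), Snx10 (1.28 ± 0.29) and Hibadh (-0.92 ± 0.11), and MI-2-2 gave 3 and 3, where 38.1% and 41.4% of all genes were called. Creb5, Jazf1, Snx10 and Hibadh moved in the same direction with both inhibitors against the shared DMSO libraries (MI-2-2 log2 fold changes 3.51, 1.79, 1.28 and -0.72), whereas the Hoxa medians were -0.71 and 0.72.

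**Figure D5:**
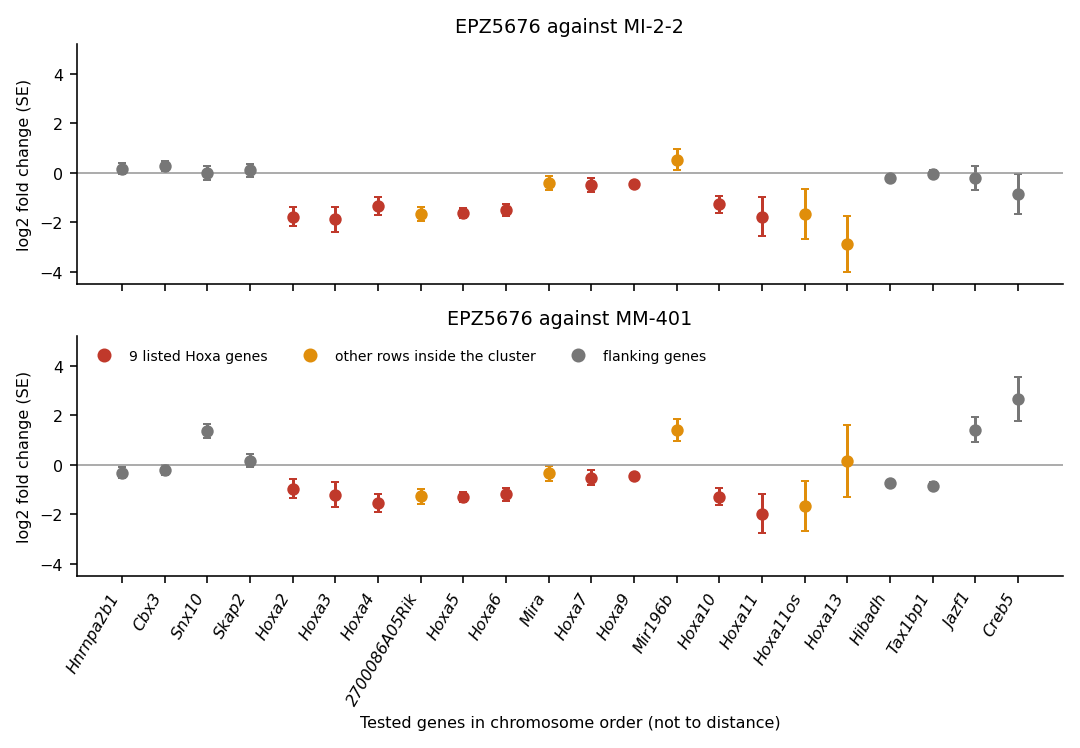
Log2 fold change (y axis, bars are the SE) of tested genes in chromosome order (x axis, not to distance) with EPZ5676 against MI-2-2 (top) and against MM-401 (bottom). The 9 Hoxa genes (red) lie below 0 in both panels, while the grey flanking genes scatter around 0 in the top panel, from -0.85 for Creb5 to 0.28 for Cbx3.

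Meis1, the cofactor that acts with Hoxa9, did not follow the Hoxa genes. Its CPM was 36.4 and 89.9 in the DMSO libraries, 34.0 and 43.2 with MM-401, 0.679 and 1.79 with EPZ5676, 0.650 and 1.13 with MI-2-2 and 51.0 and 56.7 with iBET. Meis1 fell with EPZ5676 (log2 fold change -5.67 ± 0.59, edgeR adjusted p = 7.05e-04) and with MI-2-2 (-6.12 ± 0.60, edgeR adjusted p = 6.10e-04). Between these compounds its log2 fold change was 0.45 ± 0.62, with a 95% interval of -0.98 to 1.89, where Hoxa11 had -1.78 and Hoxa5 -1.62. Of 8 Meis, Pbx and Pknox genes tested, EPZ5676 gave 4 higher and 2 lower than DMSO, and MI-2-2 gave 2 and 3, beside 38.1% and 41.4% of all genes called in either direction. Pbx4, of a family that partners Hox proteins on DNA, fell with both (-2.54 ± 0.48 and -2.94 ± 0.49). Pknox2 rose with EPZ5676 (4.57 ± 1.09) and did not pass with MI-2-2 (-0.15 ± 1.12), and Pbx3 fell with MI-2-2 (-1.39 ± 0.27) and did not pass with EPZ5676 (-0.43 ± 0.26).

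Among 17 tested genes linked to Hoxa9 and Meis1, 4 rose and 7 fell with EPZ5676 and the counts were the same with MI-2-2, at background shares of 38.1% and 41.4%. The kinase gene Cdk6 fell with both inhibitors (-1.93 ± 0.25 with EPZ5676 and -1.67 ± 0.25 with MI-2-2), as did the progenitor regulator Myb (-1.59 ± 0.17 and -1.81 ± 0.17). The stem cell surface gene Cd34 fell with MI-2-2 (-2.19 ± 0.71) and just missed the threshold with EPZ5676 (-2.05 ± 0.71, edgeR adjusted p = 0.0526). Igf1 rose with both (5.07 ± 0.80 and 5.86 ± 0.83), as did Id2 (4.53 ± 0.33 and 3.88 ± 0.32), and Erg (2.34 ± 0.23 and 1.36 ± 0.23). With iBET 3 of the 17 fell, where 13.9% of all genes were called in either direction, namely Hlf (7 and 62 reads in DMSO, 1 and 0 with iBET), Erg (-5.67 ± 0.33) and Dach1 (-1.22 ± 0.24). Between EPZ5676 and MI-2-2 0 of the 17 were called, where 0.0154% of all genes were, and their median log2 fold change was 0.14. Of 30 chromatin regulators of Hox genes, 9 fell and 3 rose with EPZ5676, and 11 fell and 5 rose with MI-2-2, so that 12 and 16 of 30 were called where 38.1% and 41.4% of all genes were, and nothing particular to the list is read from these counts. The Polycomb methyltransferase gene Ezh2 fell with both (-0.93 ± 0.15 and -1.27 ± 0.15), as did Ash2l, a subunit of MLL complexes (-1.01 ± 0.24 and -0.95 ± 0.24), and the Polycomb gene Rnf2 (-0.78 ± 0.15 and -0.79 ± 0.15). Psip1, which encodes the MLL partner LEDGF, fell with both as well (-0.59 ± 0.12 and -0.65 ± 0.12). Kdm6b, a histone demethylase gene, rose with MI-2-2 (1.33 ± 0.38) and did not pass with EPZ5676 (0.99 ± 0.38). With MM-401 against DMSO 0 genes of these lists were called, and 2 chromatin regulators, Kat6a (0.52 ± 0.13) and Ring1 (0.48 ± 0.13), rose with iBET, where 13.9% of all genes were called.

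The genes outside the cluster whose log2 CPM was most like the mean of the 9 Hoxa genes, by Pearson's r over the 10 libraries among 12956 genes, were Lgals9 (0.97), Pde9a (0.94), Bin1 (0.90), Mgat4a (0.90) and Tespa1 (0.87). By rank the likeness was weaker, with Spearman's rho of 0.88, 0.56, 0.70, 0.48 and 0.52 in the same order. Lgals9, which encodes galectin-9, had a CPM of 205 and 161 in the DMSO libraries, 193 and 206 with MM-401, 159 and 164 with EPZ5676, 219.7 and 202 with MI-2-2 and 206 and 203 with iBET. It was thus lowest with EPZ5676 and in DMSO replicate 2, as the Hoxa10 and Hoxa11 values were, over a narrower range. Mgat4a measured 40.2 and 38.5 CPM with EPZ5676 and at least 54.1 elsewhere. Pde9a, with 0 CPM in both EPZ5676 libraries, reached no more than 3.45 CPM anywhere. The 5 genes were chosen by their likeness, so r is a description of them.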

How the data were processed

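RNA sequencing reads were aligned and counted by the authors, and the deposited table holds raw read counts per gene symbol for 10 libraries. Per the submitters' processing notes TopHat2, Subread, DESeq and the mouse build mm9 were used, while versions, gene annotation and strand setting were not given in the sources used here. Groups were taken from the sample titles. Counts were filtered (filterByExpr, minimum count 10, minimum total 15), TMM-normalized and fitted in 1 model of all 10 libraries with edgeR 4.0.16 (R 4.3.3), by the quasi-likelihood test with Benjamini-Hochberg adjustment over 12971 genes and a threshold of 0.05. DESeq2 1.42.0, other scalings, no filter, the replicate block, smaller fits and leaving out libraries were tried as alternatives. Libraries with the same number deviated together from their group means (r 0.28 to 0.67 over all 10 pairs of groups), so the numbers were taken to pair the libraries in the block. The main tests did not use this pairing. DMSO replicate 2 differed in Y-linked reads from the other libraries of its number, so what the block pairs in comparisons with DMSO is not known. Of 200 genes changed in simulated counts (12766 genes tested), 87 of 100 were recovered at 4-fold and 36 of 100 at 2-fold for EPZ5676 against DMSO. The changed genes were drawn from those with an expected count of at least 100, which leaves out rarer members such as Hoxa4. In the data 4942 genes were called, so the adjusted threshold differed and these shares do not give the power for the Hoxa genes. Exon lengths, gene order and start sites came from GENCODE M21 and RefSeq GRCm38.p6, whose build differs from that of the counts, so no position was carried over. Named genes were the 9 Hoxa genes, the other rows of the cluster, 10 neighbours on each side, the 5 genes with the most similar pattern, Meis1 and up to 4 called genes of each list with the largest change. The members, lists and tests were chosen with earlier results of these data known. Some genes of these lists are not reported here.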

Additional observations from a re-analysis of the deposited data

Results flagged for a closer look

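The effects of the inhibitors were measured against the same DMSO libraries, so the difference of a pair of effects is the direct comparison of the inhibitors, and the quasi-likelihood test of edgeR, adjusted by Benjamini-Hochberg, called it for 13 values. The effect of EPZ5676 was below that of MM-401 for Hoxa4 (log2 difference -1.54), Hoxa5 (-1.31), Hoxa6 (-1.19), Hoxa9 (-0.45) and Hoxa10 (-1.29). It was below that of iBET for Hoxa2 (-1.54), Hoxa3 (-1.48), Hoxa4 (-1.37), Hoxa5 (-1.22), Hoxa6 (-1.10), Hoxa9 (-0.86) and Hoxa10 (-1.88). The effect of MI-2-2 was below that of iBET for Hoxa9 (-0.42), a call that ended when any 1 of the 4 libraries was left out. Both EPZ5676 libraries lay below both MM-401 libraries, and below both iBET libraries, for each gene named here. No group had the 4 samples that a check for single outlying samples needs.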

How the results depend on the processing

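The table was refitted under each alternative, and in the fits that leave out 1 library the lone library left is assumed to vary like the other groups. The numbers of Hoxa genes called (of 9) that moved were as follows. For EPZ5676 against DMSO, 2 genes became 4 with total-count scaling, 0 with only the 2 groups in the fit, and 0 to 7 with 1 library left out. For MI-2-2 against DMSO, 2 became 0 with only the 2 groups and 1 to 7 with 1 library left out. For MM-401 against DMSO, 0 became 1 with DESeq2 and 0 to 4 with 1 library left out. For iBET against DMSO, 0 became 1 without a filter, 2 with DESeq2, 2 with the replicate block, and 0 to 7 with 1 library left out. For EPZ5676 against MI-2-2, 0 became 1 without a filter, 6 with DESeq2, 5 without the DMSO libraries and 8 without them and with the replicate block, a fit chosen after the data were seen. For EPZ5676 against MM-401, 5 became 9 without the DMSO libraries (9 also with the block), 8 with only the 2 groups, and 1 to 3 with 1 library left out. For EPZ5676 against iBET, 7 became 3 to 4 with 1 library left out. For MI-2-2 against MM-401, 0 became 3 without the DMSO libraries and with the block. For MI-2-2 against iBET, 1 became 4 without the DMSO libraries, 5 with the block as well, 3 with only the 2 groups, and 0 to 0 with 1 library left out. For MM-401 against iBET, 0 became 1 with DESeq2 and 3 without the DMSO libraries, without them and with the block, and with only the 2 groups. The block changed no call of a Hoxa gene in the fit of 10 libraries beyond those named with the comparisons.

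Signs turned for small log2 fold changes and where the DMSO libraries lay apart, and the cause was not tested. With 1 library left out, the log2 fold changes against DMSO that turned ranged from -1.15 to 0.11 for Hoxa10 and -1.70 to 1.64 for Hoxa11 with EPZ5676, with the upper value in each case without DMSO replicate 1. With MI-2-2 they were -0.033 to 0.30 for Hoxa4, -0.64 to 0.41 for Hoxa7 and -0.19 to 0.014 for Hoxa9, and total-count scaling gave -0.016 for Hoxa4. With MM-401 they were -0.12 to 0.65 for Hoxa2, -0.56 to 1.12 for Hoxa3, -0.093 to 0.67 for Hoxa4, -0.61 to 0.39 for Hoxa7 and -0.22 to 0.029 for Hoxa9. With iBET they were -0.27 to 1.40 for Hoxa3 and -0.0064 to 0.32 for Hoxa4. For MI-2-2 against MM-401 they were -0.53 to 0.23 for Hoxa4, -0.11 to 0.071 for Hoxa7, -0.089 to 0.056 for Hoxa9 and -0.18 to 0.13 for Hoxa10, and DESeq2 size factors gave 0.0088 for Hoxa7, 0.017 for Hoxa9 and 0.012 for Hoxa10 (0.0089, 0.017 and 0.012 with its own test). For EPZ5676 against iBET, Hoxa7 had -0.18 to 0.19 with 1 library left out, 0.061 with DESeq2 size factors and with its test, 0.016 with the block, 0.028 and 0.032 without the DMSO libraries (without and with the block) and 0.050 with only the 2 groups. For MI-2-2 against iBET the ranges were -0.051 to 0.48 for Hoxa2 and -0.20 to 0.15 for Hoxa4, which had 0.034 with DESeq2 size factors and with its test and 0.011 with only the 2 groups. For MM-401 against iBET they were -0.26 to 0.50 for Hoxa4, -0.084 to 0.23 for Hoxa5 and -0.065 to 0.26 for Hoxa6. Per kb, the mean levels with the longest transcript as length were 12.2 for Hoxa3, 14.8 for Hoxa7, 123 for Hoxa9 and 117 for Hoxa10, against 5.27, 10.5, 70.8 and 91.8 with all exon bases.

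Over all genes tested, EPZ5676 against MI-2-2 had 2 genes called in the fit of 10 libraries, 156 with DESeq2, 126 without the DMSO libraries, 856 with the block as well, 7 without a filter, 4 with the block and 0 with total-count scaling or 1 library left out. MM-401 against DMSO had 0 genes, 286 with DESeq2 and 1368 without DMSO replicate 1. With only the 2 groups, EPZ5676 against DMSO went from 4942 to 1174, MI-2-2 from 5373 to 1147, iBET from 1806 to 0 and MM-401 against iBET from 1484 to 4223. DESeq2 and the block gave 2830 and 3088 for iBET against DMSO, and 2342 and 2470 for MM-401 against iBET, which had 3232 without the DMSO libraries. EPZ5676 against MM-401 had 4320 genes in the fit of 10 libraries, 6261 without the DMSO libraries and 5702 with only the 2 groups. The number of Hoxa genes called in that comparison thus rose where more of all genes were called. Without the DMSO libraries and with the block the counts were 5191 to 8166 for the comparisons of MM-401, EPZ5676 or MI-2-2 with iBET, 7839 for EPZ5676 against MM-401 and 8007 for MI-2-2 against MM-401. With 1 library left out they were 150.0 to 3720 for iBET against DMSO, 183 to 274 for MM-401 against iBET, 1556 to 2612 for EPZ5676 and 1729 to 2613 for MI-2-2 against MM-401, down to 2248 and 2096 for these compounds against iBET, and down to 2639 and 2772 against DMSO. Total-count scaling shifted the median log2 fold change of all genes to -0.23 for EPZ5676 and -0.20 for MI-2-2 against DMSO. With 2 libraries a group, and 25 and 29 reads of Hoxa4 in the EPZ5676 libraries, small differences of the rarer members were not detectable.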
